A study of Homo sapiens with 2 samples.

Results

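The 43 genes described here encode chromatin remodelers and the enzymes that modify histones and DNA, and all 43 were expressed in SUM159 breast cancer cells made resistant to doxorubicin. They were taken by symbol from a fixed list, out of 23368 gene symbols counted, and fall into 6 classes: 13 SWI/SNF subunits, 12 histone deacetylases and sirtuins, 4 Polycomb proteins, 6 histone demethylases, 6 enzymes of DNA methylation and 2 acetyltransferases. All of them passed a mean of 20 counts over the libraries, the cut for expression used here. It was passed by 52.8% of all symbols and 61.9% of 18688 protein-coding symbols. The methods of the study set this minimum as part of the definition of a differentially expressed gene in bulk libraries. The lowest count of any of them in a library was 44.

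SUM159 is a triple-negative breast cancer line, labelled as wild type, and the cells were grown attached, as a monolayer, in Ham's medium with serum, insulin and hydrocortisone. Resistance was raised by long-term treatment with escalating doses of doxorubicin, an anthracycline that poisons topoisomerase II. The paper describes exposure for 2 days and then a period of recovery without the drug. Polyadenylated RNA of this single condition was sequenced in 2 libraries as single-end reads of 100 bases, and treatment-naïve cells were not analysed here, so that the values are levels in resistant cells and carry no fold change. Whether the libraries stem from separate cultures is not stated, and the spread between them may be technical. In RNA from whole cultures, a transcript present in fewer cells and a transcript with less RNA per cell cannot be told apart.

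Chromatin is opened and closed by machines of several kinds. SWI/SNF complexes use ATP to slide or evict nucleosomes, histone deacetylases remove the acetyl groups that the acetyltransferases EP300 and CREBBP add, and Polycomb complexes write a repressive methyl mark that KDM6 enzymes erase. DNA methyltransferases add methyl groups to cytosine, and TET enzymes oxidize them. Doxorubicin intercalates into DNA and can evict histones, and several subunits of these complexes are tumor suppressors that are recurrently mutated in cancer.

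Many of these genes are paralogs, so their counts depend on reads that tell the copies apart. In the coding sequences of the 23 pairs compared, the longest run identical between partners had 30 bases, in HDAC7 and HDAC5, against reads of 100 bases. The most alike stretches of 100 bases are printed for the pair with the closest match and for the catalytic pairs SMARCA4 with SMARCA2 and HDAC1 with HDAC2, from the canonical GENCODE transcripts of GRCh37, with the bases that differ between partners in capitals. Positions are counted from the start codon.
EP300, coding bases 4955 to 5054: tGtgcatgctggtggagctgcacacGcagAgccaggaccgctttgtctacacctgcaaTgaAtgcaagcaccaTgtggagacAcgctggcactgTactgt
CREBBP, coding bases 5066 to 5165: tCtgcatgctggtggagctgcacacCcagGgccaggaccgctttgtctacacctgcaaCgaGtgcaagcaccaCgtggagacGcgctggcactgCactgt
SMARCA4, coding bases 4568 to 4667: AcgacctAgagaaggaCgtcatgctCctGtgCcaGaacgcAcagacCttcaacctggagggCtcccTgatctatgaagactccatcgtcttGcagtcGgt
SMARCA2, coding bases 4394 to 4493: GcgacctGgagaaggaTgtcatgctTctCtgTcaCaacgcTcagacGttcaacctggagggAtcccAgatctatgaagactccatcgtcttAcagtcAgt
HDAC1, coding bases 27 to 126: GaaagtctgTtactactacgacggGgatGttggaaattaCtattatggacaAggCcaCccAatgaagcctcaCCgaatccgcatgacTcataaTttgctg
HDAC2, coding bases 30 to 129: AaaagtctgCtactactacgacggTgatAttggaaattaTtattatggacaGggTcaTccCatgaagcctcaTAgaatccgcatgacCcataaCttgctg
EP300 and CREBBP differ at 8 of these 100 bases, SMARCA4 and SMARCA2 at 13, and HDAC1 and HDAC2 at 13.

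When the spliced transcripts were cut into windows of 100 bases and searched in GRCh37, 39 of the 43 genes had no window with an exact copy outside their own locus. The other 4 were SMARCE1 with 0.61% of its windows, SUZ12 with 0.45%, TET1 with 0.13% and HDAC9 with 0.02%. Exons of 5 genes overlap those of another counted gene by more than 5% of their length. HDAC10 shares 55.8% of its exonic bases with MAPK12 on the same strand, and SMARCD3, HDAC5, SMARCB1 and SMARCC2 share 26.9%, 23.97%, 17.7% and 7.83% with genes on the opposite strand. How reads in these overlaps were counted is not given in the sources used here, so the values of these 5 genes are uncertain.

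The counts in genes summed to 23044084 in replicate 1 and 17985508 in replicate 2, and levels are given as counts per 1000000 counts of the library (CPM). A single count is worth 0.0434 and 0.0556 CPM in these libraries. Of the receptor genes that define triple-negative cells, ESR1 had 11 and 9 counts and PGR 2 and 0, whereas ERBB2 was present with 2191 and 1877 counts, or 99.7 ± 6.56 CPM (SD, n = 2). The mesenchymal marker VIM had 7540 ± 873 CPM (SD, n = 2). The epithelial markers EPCAM and CDH1 had 6 and 6 and 9 and 13 counts, whereas the keratin genes KRT8 and KRT18 had 265 ± 60.2 and 346 ± 89.6 CPM (SD, n = 2 each). Of 12 markers of leukocytes, endothelium, nerve and muscle, 5 reached a mean count of 20 (CD68, CD14, PTPRC, SYP and PECAM1), and CD3E, VWF and MYOD1 had 0 counts in both libraries. The 12 markers summed to 52.0 and 32.2 CPM in replicates 1 and 2, of which CD68 and CD14 made up most, and their part in the levels below was not tested.

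SMARCA4, the ATPase that drives SWI/SNF remodeling, had the highest CPM of the 13 subunits, and its alternative SMARCA2 was among the lowest. SMARCA4 (chromosome 19, 11071608 to 11190102 in GRCh37) was measured with 4468 and 4557 counts, or 193.9 and 253.4 CPM in replicates 1 and 2. SMARCA2, on chromosome 9, had 33.9 and 54.9 CPM, so that the libraries did not overlap between these ATPases. The scaffold subunit SMARCC1 had 143.9 and 218.9 CPM and its paralog SMARCC2 had 115.9 and 134.3 CPM. SMARCE1 and SMARCB1, small core subunits of which SMARCB1 is lost in rhabdoid tumors, had 141.0 ± 0.342 and 117.8 ± 11.4 CPM (SD, n = 2 each). Of the SMARCD subunits, which link the complex to transcription factors, SMARCD2 had 89.1 ± 0.429, SMARCD1 76.0 ± 3.04 and SMARCD3 45.5 ± 6.37 CPM (SD, n = 2 each). SMARCE1, SMARCD2 and SMARCD1 were measured at nearly the same level in both libraries.

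The large ARID and PBRM1 subunits, which decide the type of SWI/SNF complex, stood in the middle and lower range of the subunits and were all higher in replicate 2. ARID1A, the subunit of the BAF complex most often mutated in cancer, had 73.3 and 137.3 CPM in replicates 1 and 2. Its alternative ARID1B had 43.2 and 88.8 CPM. The PBAF complex is marked by PBRM1, with 37.9 and 72.6 CPM, and ARID2, with 23.4 and 45.8 CPM. In each library ARID1A was the highest and ARID2 the lowest of these 4 genes, whereas replicate 1 of ARID1A and replicate 2 of PBRM1 lie close together.

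Among the histone deacetylases, the class I enzymes HDAC1 and HDAC2 had the highest CPM, followed by HDAC7 of class IIa. HDAC1 (chromosome 1) had 5072 and 3276 counts, or 220.1 and 182.1 CPM. HDAC2, which sits with HDAC1 in the same corepressor complexes, had 173.5 and 176.7 CPM, and the spread of HDAC1 over the libraries is larger than its distance to HDAC2 in replicate 2. HDAC3, the catalytic subunit of the NCoR and SMRT corepressors, had 115.9 and 91.4 CPM, and HDAC8, the remaining class I enzyme, had 19.7 and 17.8 CPM. Class IIa enzymes shuttle between nucleus and cytoplasm and bind MEF2 factors. In this class HDAC7 had 136.6 and 137.2 CPM, HDAC5 84.8 and 70.6, HDAC4 20.4 and 40.8, and HDAC9 7.12 and 5.78. HDAC7 and HDAC9 were the highest and the lowest of them in both libraries.

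The deacetylases of other classes were at intermediate to low levels. HDAC6, a mainly cytoplasmic enzyme that acts on tubulin, had 46.1 ± 7.93 CPM (SD, n = 2), and HDAC10, which acts on polyamines, had 41.3 ± 7.04 CPM (SD, n = 2), with the overlap with MAPK12 described above. HDAC11, the only class IV enzyme, was low with 9.14 ± 1.44 CPM (SD, n = 2). SIRT1, a deacetylase that depends on NAD and acts on p53 as well as histones, had 32.6 ± 2.51 CPM (SD, n = 2). HDAC6 and HDAC10 overlapped over the libraries, SIRT1 lay below both, and HDAC11 was the lowest of the 4 in each library.

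**Figure D1:**
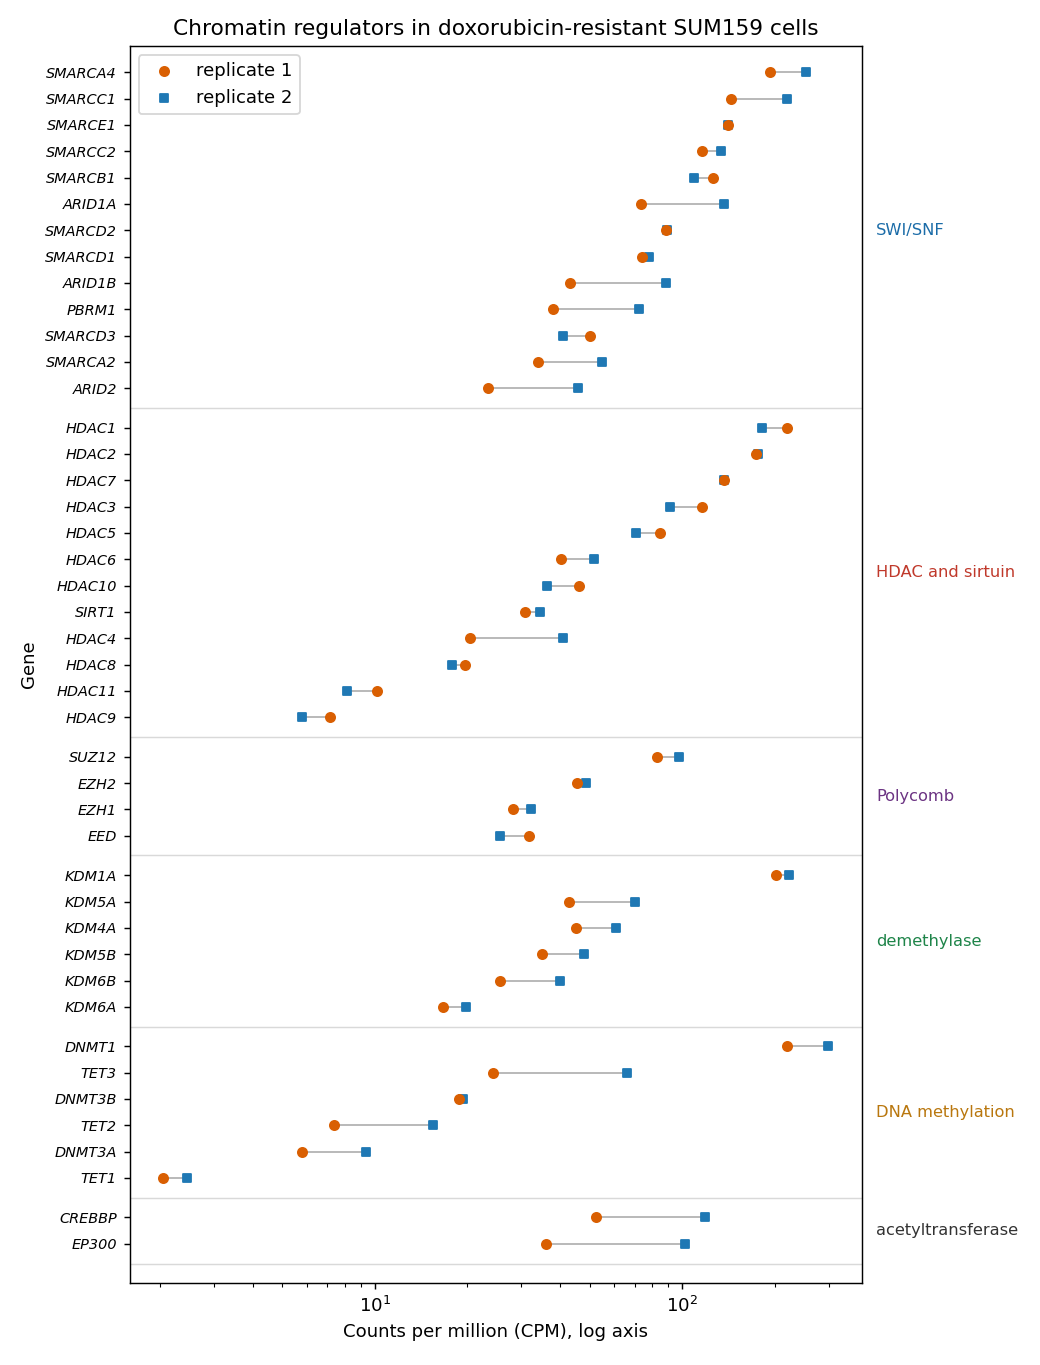
CPM on a log axis (horizontal) of the 43 chromatin regulators, 1 gene per line, grouped by class and ordered by mean level. Circles are replicate 1 and squares replicate 2, joined by a line, and levels run from TET1 at 2.04 and 2.45 CPM to DNMT1 at 219.8 and 299.4 CPM, with wide gaps between the libraries at EP300, CREBBP, TET3 and the ARID genes.

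Of the core of Polycomb repressive complex PRC2, SUZ12 was the most abundant transcript. The catalytic subunit EZH2, which is high in many proliferating tumors, had 45.4 and 48.5 CPM in replicates 1 and 2. EZH1, its counterpart of resting cells, had 28.1 and 32.3 CPM. SUZ12, which stabilizes the complex, had 83.1 and 97.8 CPM, and EED, which reads the mark, had 31.8 and 25.6 CPM. EZH2 exceeded EZH1 in both libraries, whereas EED and EZH1 overlapped.

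KDM1A had by far the highest CPM of the 6 demethylases. It removes methyl groups from histone tails within the CoREST complex, lies on chromosome 1 (23345936 to 23410182 in GRCh37), and had 202.7 and 223.5 CPM. The other demethylases belong to the Jumonji family. KDM5A and KDM5B, which act on the trimethyl mark of active promoters, had 42.96 and 70.3 CPM and 35.1 and 48.0 CPM, in that order of genes, and KDM4A had 45.0 and 60.8 CPM. The KDM6 enzymes, which erase the Polycomb mark, were lower in CPM, with 25.5 and 40.0 for KDM6B and 16.6 and 19.9 for KDM6A. KDM1A lay above every other demethylase in each library, and KDM4A, KDM5A and KDM5B overlapped.

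DNMT1, the maintenance DNA methyltransferase that copies methylation after replication, had the highest mean CPM of the 43 genes, and TET1 had the lowest. In replicate 1 alone HDAC1, with 220.1 CPM, lay just above DNMT1, with 219.8 CPM. DNMT1 (chromosome 19, 10244018 to 10341962 in GRCh37) was measured with 5064 and 5384 counts, or 219.8 and 299.4 CPM, a mean of 259.6 ± 56.3 CPM (SD, n = 2). The de novo enzymes were far lower, with 18.8 and 19.3 CPM for DNMT3B and 5.77 and 9.34 CPM for DNMT3A. Of the TET dioxygenases, TET3 had 24.2 and 66.1 CPM in replicates 1 and 2, and TET2, a tumor suppressor of blood cells, had 7.38 and 15.5 CPM. TET1, on chromosome 10, had 47 and 44 counts, or 2.04 and 2.45 CPM. The order of TET3, TET2 and TET1 was the same in each library, and no value of one enzyme overlapped another.

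For the genes with the highest and the lowest mean CPM, the sequence around the start is shown as an example. The 250 bases before to 50 after the start of DNMT1 and TET1 are printed from the RefSeq table of GRCh38.p14, with CpG dinucleotides in capitals.
DNMT1, chr19:10194904-10195203, minus strand: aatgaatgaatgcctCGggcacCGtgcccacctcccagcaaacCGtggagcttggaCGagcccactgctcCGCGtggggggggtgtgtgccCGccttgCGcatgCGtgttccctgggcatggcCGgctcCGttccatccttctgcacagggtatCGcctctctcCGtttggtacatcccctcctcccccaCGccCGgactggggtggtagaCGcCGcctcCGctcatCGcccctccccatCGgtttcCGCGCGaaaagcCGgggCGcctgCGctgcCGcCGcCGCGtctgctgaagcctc
TET1, chr10:68560087-68560386, plus strand: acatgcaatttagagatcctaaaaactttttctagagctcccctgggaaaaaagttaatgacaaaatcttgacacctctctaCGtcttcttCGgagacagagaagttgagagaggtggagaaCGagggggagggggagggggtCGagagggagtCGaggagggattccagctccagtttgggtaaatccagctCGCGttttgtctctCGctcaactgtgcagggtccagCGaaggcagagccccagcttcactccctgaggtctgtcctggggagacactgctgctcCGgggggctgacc
DNMT1 has 30 CpG dinucleotides in this window and TET1 has 10. Of the 43 genes, 39 have such a sequence in the table, all but SMARCC1, SMARCC2, ARID2 and HDAC5, with a median of 30 CpG dinucleotides, against 14 over all 27305 promoters of this length. An observed to expected CpG ratio above 0.6 was found in 33 of the 39, against 48.9% of all promoters. The lowest numbers of CpG dinucleotides, 3 each, were those of DNMT3B and HDAC4. DNMT1 and TET1 were picked by their levels and do not stand for the rest. HDAC11, at 9.14 CPM, also has 30 CpG dinucleotides, and ARID1B, at 66.0 CPM, has 5. Whether the number of CpG dinucleotides goes with the level over the 39 genes was not tested. The SP1 box GGGGCGGGG on either strand was present in 12 of the 39, or 30.8%, against 16.0% of all promoters, and TATAAA was present in 0 of the 39, against 12.0%. The CCAAT box was present in 35.9%, against 35.7%. A match of letters is a description of the window. Each gene is represented by a single start, other starts of the same gene were not examined, and the start used in these cells was not measured.

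The acetyltransferases EP300 and CREBBP, paralogous coactivators shared by many transcription factors, stood at similar levels and were both far higher in replicate 2. EP300 (chromosome 22, 41488596 to 41576081 in GRCh37) was measured with 830 and 1836 counts, or 36.0 and 102.1 CPM. CREBBP, on chromosome 16, had 1210 and 2129 counts, or 52.5 and 118.4 CPM. CREBBP was above EP300 in CPM in each library, but replicate 2 of EP300 exceeded replicate 1 of CREBBP by a wide margin. Their mean levels, 69.1 ± 46.7 and 85.4 ± 46.6 CPM (SD, n = 2 each), therefore rest on which library is taken.

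Summed over classes, the SWI/SNF subunits had the largest share, with 1145 and 1465 CPM in replicates 1 and 2. The deacetylases followed with 905.7 and 852.8 CPM, the demethylases with 367.9 and 462.3 CPM, the DNA methylation enzymes with 277.9 and 412.0 CPM and the Polycomb proteins with 188.3 and 204.1 CPM. The 2 acetyltransferases had 88.5 and 220.5 CPM. By sum, SWI/SNF and deacetylases kept the first 2 places in each library, whereas the acetyltransferases lay below the Polycomb proteins in replicate 1 and above them in replicate 2. These sums also grow with the number of genes listed. The median CPM per gene was 89.0 for SWI/SNF, 77.2 for acetyltransferases and 47.2 for demethylases. It was 43.7 for deacetylases, 38.6 for Polycomb proteins and 15.2 for DNA methylation enzymes. All 43 genes together had 2973 and 3616 CPM. The median over the 43 genes was 52.9 CPM, against 34.1 CPM over all genes past a mean of 20 counts, and 30 of the 43 were above that median. Per kilobase of exon and per 1000000 counts (RPKM) the medians were 5.72 and 6.39, and 20 of the 43 were above. With the length of the canonical transcript they were 11.2 and 10.3 RPKM, and 23 of the 43 were above, so that the side of the median on which these genes fall per length depends on the length used.

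**Figure D2:**
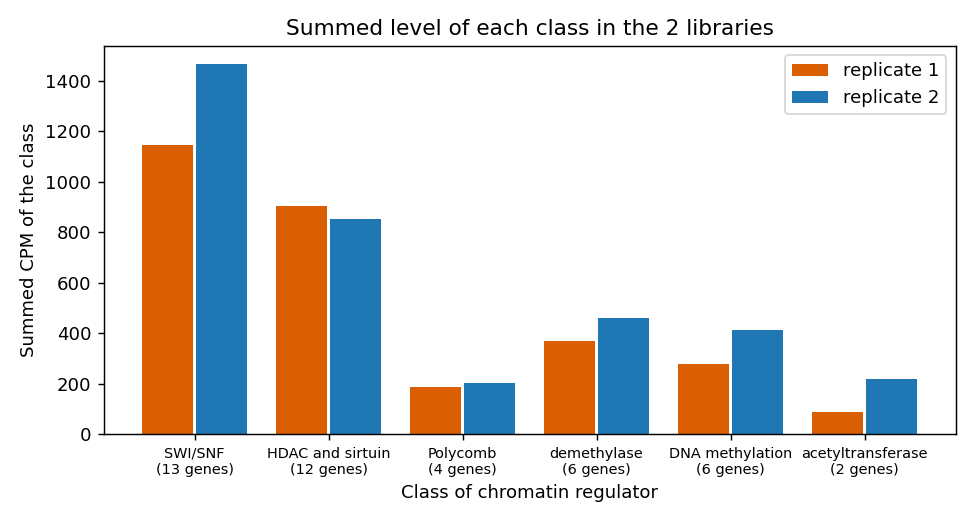
Summed CPM (vertical axis, from 0) of the 6 classes of chromatin regulators, with the number of genes in each. Left bars are replicate 1 and right bars replicate 2, and the sums run from 88.5 and 220.5 CPM for the acetyltransferases to 1145 and 1465 CPM for the SWI/SNF subunits.

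Levels of different genes were compared per length, as the ratio of RPKM of 2 genes within a library, with an exact 95% Clopper-Pearson interval that covers counting error only. Length was the union of the annotated exons, and because this union grows with rare isoforms, the ratio was also taken with the canonical transcript, a choice made after the data had been seen. Of the 23 pairs, 17 kept the same order in both libraries and with both lengths, with the first gene higher in 16 of them.

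By this measure SMARCA4 exceeded SMARCA2 by 7.01 times in replicate 1 (interval 6.5 to 7.58) and 5.65 times in replicate 2 (5.27 to 6.05). With canonical lengths the ratios were 5.90 and 4.75. By exon union SMARCA4, with a mean of 14.35 RPKM, lay below SMARCC1, SMARCD1 and SMARCD2, with 23.8, 15.5 and 15.1 RPKM. By canonical length SMARCA4 was the highest of the subunits, with 40.1 RPKM. ARID1A exceeded ARID1B by 4.89 and 4.46 times, and by 2.04 and 1.85 times with canonical lengths. Within the PBAF complex PBRM1 was 2.09 and 2.04 times ARID2, and 1.75 and 1.70 times with canonical lengths. No order was shared by both lengths for the remaining SWI/SNF pairs, since SMARCD1 to SMARCD2 was 1.00 and 1.05 by exon union but 0.624 and 0.656 by canonical length, and SMARCC1 to SMARCC2 was 1.5 and 1.96 but 0.995 and 1.31. SMARCD1 to SMARCD3 was 1.48 and 1.91 by exon union, against 0.858 and 1.11 by canonical length.

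HDAC1 was the highest of the 43 genes per length, with a mean of 50.7 RPKM by exon union and 94.96 RPKM by canonical length. It exceeded HDAC2 by 4.90 and 3.99 times, although the CPM of these enzymes were close, and HDAC3 by 2.21 and 2.32 times. HDAC2 lay below HDAC3 and HDAC7 per length, with 11.4 against 22.5 and 13.8 RPKM by exon union. By canonical length these means were 17.98, 53.6 and 32.5 RPKM, in the same order of genes. The ratio of HDAC1 to HDAC8 was 64.6 and 59.1 by exon union and 9.27 and 8.48 by canonical length, so its size, but not its direction, depends on the length. In class IIa HDAC7 exceeded HDAC9 by 33.4 and 41.3 times, HDAC4 by 9.58 and 4.80 times and HDAC5 by 1.24 and 1.49 times, the last being 2.03 and 2.45 times with canonical lengths. HDAC6 lay below HDAC10, with ratios of 0.299 and 0.487, and 0.545 and 0.887 with canonical lengths. The exon overlaps of HDAC10 and HDAC5 described above leave this order, and that of HDAC7 over HDAC5, uncertain.

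DNMT1 exceeded DNMT3A by 34.1 and 28.7 times and DNMT3B by 5.22 and 6.94 times, and with canonical lengths by 68.0 and 57.2 times and by 9.59 and 12.8 times. DNMT3B exceeded DNMT3A by 6.54 and 4.14 times. TET3 was 4.17 and 5.44 times TET2, or 2.61 and 3.40 times with canonical lengths, and 8.80 and 20.1 times TET1, with intervals of 6.53 to 12.1 and 14.9 to 27.8 for the ratio to TET1. TET1 was the lowest of the 43 genes per length by either measure, with 0.233 RPKM. KDM6B exceeded KDM6A by 5.76 and 7.56 times, or 1.39 and 1.82 times with canonical lengths. Its mean RPKM was also above that of KDM5B, with 4.43 against 1.67 by exon union and 4.87 against 4.47 by canonical length. SUZ12 exceeded EED by 2.79 and 4.08 times, or 1.21 and 1.78 times with canonical lengths.

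EZH2 and EZH1 could not be ordered by exon union, with ratios of 1.05 (interval 0.947 to 1.16) and 0.973 (0.875 to 1.08). With canonical lengths EZH2 was 2.82 and 2.62 times EZH1, so the order of these methyltransferases rests on the length used. KDM5B to KDM5A was 0.394 and 0.330 by exon union and 0.940 and 0.786 by canonical length. KDM1A had the highest mean RPKM of the demethylases by either length, but its lead depended on the length. By exon union it had 11.6 and KDM4A 10.2 RPKM, against 69.1 and 11.8 RPKM by canonical length. EP300 to CREBBP was 0.908 (0.830 to 0.993) in replicate 1 and 1.14 (1.07 to 1.22) in replicate 2, on opposite sides of 1, and no order is given for this pair.

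**Figure D3:**
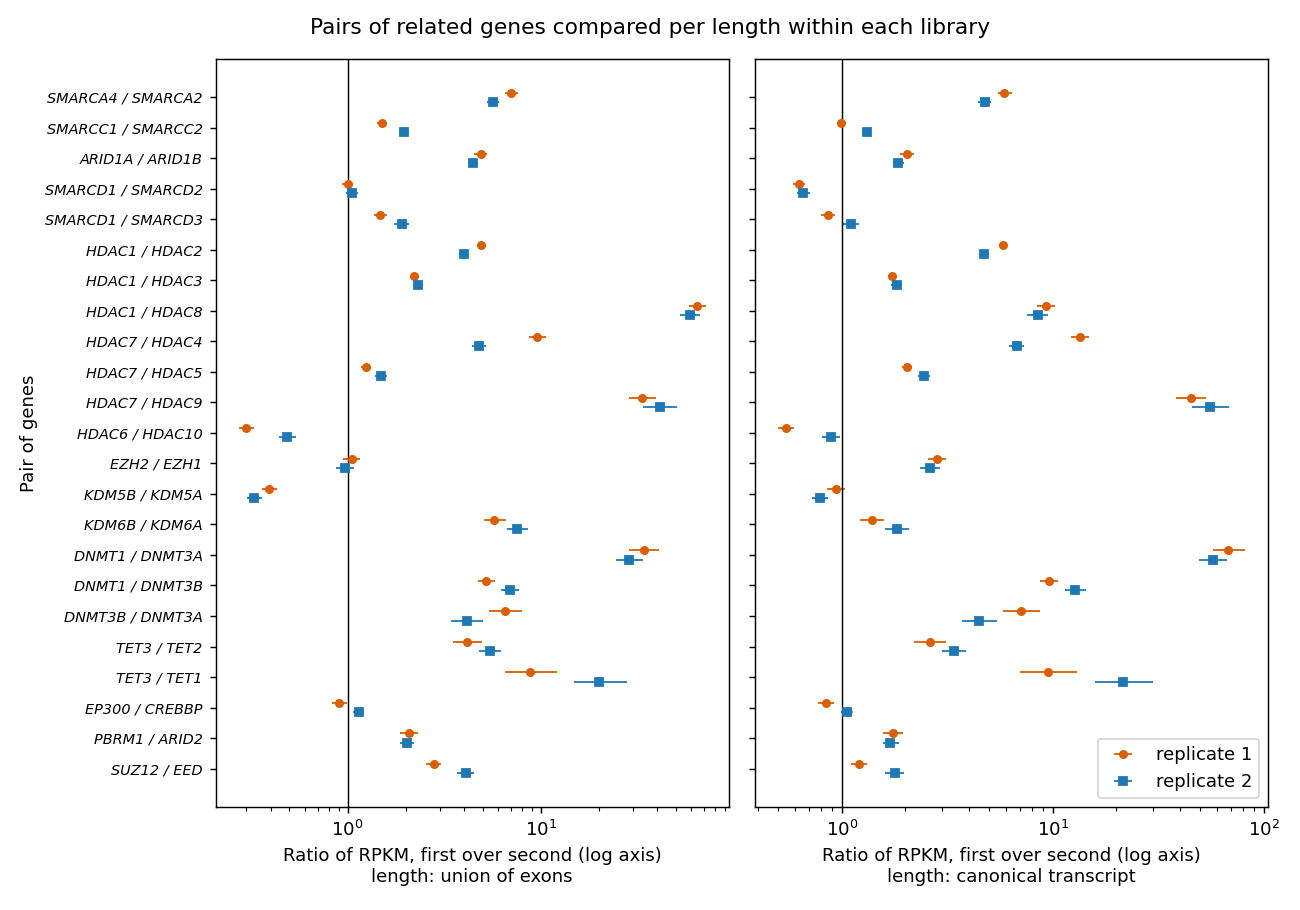
Ratio of RPKM of the first over the second gene (horizontal, log axis) for 23 pairs of related genes, with exon union length on the left and canonical transcript length on the right. Circles are replicate 1, squares replicate 2 and bars exact 95% intervals of counting error, and most pairs lie on the same side of 1 in both panels, whereas EZH2 to EZH1 moves from 1.05 and 0.973 to 2.82 and 2.62.

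The libraries are of 1 condition, and their difference at these genes was tested for every gene by edgeR's exact binomial test, which compares these libraries and covers counting error only. Of the 43 genes, 7 were higher in replicate 1 and 24 in replicate 2 at an adjusted p below 0.05, against 27.6% and 30.1% of 13744 genes tested, or 57.7% in all. The median log2 ratio of replicate 1 over replicate 2 was −0.24 over the 43 genes and 0.01 over all tested genes, with quartiles of −0.33 and 0.30. The order of the 43 genes by CPM was similar in the libraries, with a Spearman rho of 0.919 across genes.

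EP300 had the lowest log2 ratio of the 43 genes, −1.503 ± 0.06 (counting SE, adjusted p = 6.52e-148 in the exact binomial test). TET3 followed with −1.45 ± 0.07 and CREBBP with −1.17 ± 0.05, and TET2, ARID1B and HDAC4 were also more than 2-fold higher in replicate 2, with −1.07, −1.04 and −1.004. At the other end HDAC10 had 0.35 ± 0.07 (adjusted p = 3.24e-06) and HDAC3 0.34 ± 0.05 (adjusted p = 1.26e-13). Between replicates 1 and 2, 16 of the 43 genes differed by less than 1.2-fold, among them SMARCE1, HDAC7, SMARCD2, HDAC2 and DNMT3B. The share of all tested genes within 1.2-fold or beyond 2-fold was not taken. The median size of the log2 ratio was 0.323 over the 43 genes and 0.315 over all tested genes, so the sizes were alike. All 6 demethylases, both acetyltransferases and 8 of 13 SWI/SNF subunits were higher in replicate 2. The 7 genes higher in replicate 1 were HDAC1, HDAC3, HDAC5, HDAC10, SMARCB1, SMARCD3 and EED. Of these, HDAC5, HDAC10, SMARCB1 and SMARCD3 have the exon overlaps with other genes described above, so their ratios are uncertain.

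A further test used a dispersion, but with a single library on each side it had to be estimated from the same difference that is tested. Few calls follow from that construction, and nothing is read from them. With the common dispersion estimated from the same libraries, a coefficient of variation of 22.3%, the exact test of edgeR called 0 of the 43 genes, against 0.298% of all tested genes, 0.102% higher in replicate 1 and 0.196% higher in replicate 2. The 8 of the 43 genes with the largest log2 ratios in size were EP300, TET3, CREBBP, TET2, ARID1B, HDAC4, ARID2 and PBRM1, all higher in replicate 2. That test adds nothing to these ratios.

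The ratio between the libraries moved with transcript length, in these genes as in the rest. Spearman's rho between exon union length and the log2 ratio was −0.40 across the 43 genes and −0.51 across 12986 tested genes, and with canonical length it was −0.73 and −0.63. The median canonical length was 5274 bases for the 43 genes and 3395 bases for all genes past a mean of 20 counts, and 32 of the 43 were longer than that. Of 14 genes with a canonical transcript above 8000 bases, 0 were higher in replicate 1 and 11 in replicate 2, against 5.25% and 71.6% of 1142 such genes in all. Of 9 genes with at most 3000 bases, 5 were higher in replicate 1 and 0 in replicate 2, against 49.7% and 5.87% of 5727 genes. The lengths of 8000 and 3000 bases were chosen after the values were seen.

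After the trend on exon union length was subtracted, the median log2 ratio of the 43 genes was 0.04. EP300 and TET3 remained more than 1 below the trend, with −1.16 and −1.08, against 5.11% of all genes past 1 in either direction, and CREBBP was at −0.75. With canonical length they were at −0.96 and −0.76, and none of the 43 was past 1. HDAC9 was the farthest above, with 0.75 and 0.90. Long transcripts are common among chromatin regulators, and what made the libraries differ with length was not tested.

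**Figure D4:**
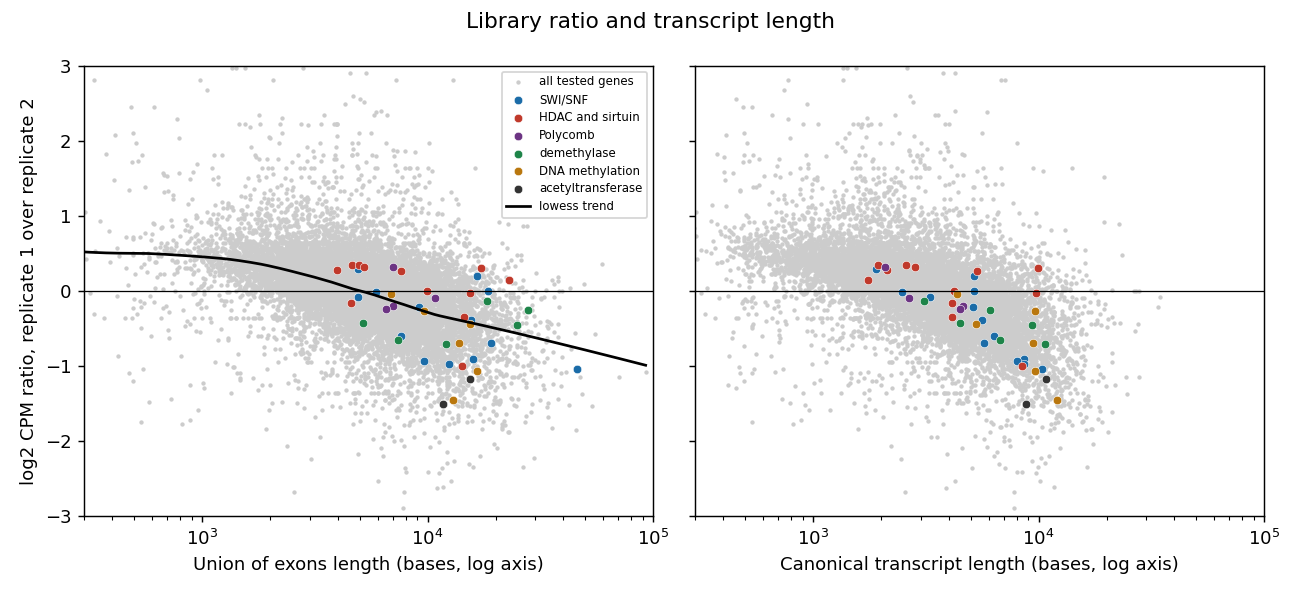
Log2 ratio of CPM in replicate 1 over replicate 2 (vertical) against the exon union length (left) and the canonical transcript length (right) on log axes. Coloured points are the 43 genes by class, grey points other tested genes and the black line the lowess trend on exon union length. Of all tested genes with a length, 102 lie outside the axes, and the 43 genes follow the decline with rho of −0.40 and −0.73.

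Other chromatin genes, listed by complex or function and ranked by RPKM on exon union length, were also broadly expressed: 134 of 140 measured passed a mean of 20 counts. Of 136 tested, 20 were higher in replicate 1 and 80 in replicate 2 in the exact binomial test. Over all 13744 genes tested the shares were 27.6% and 30.1%, and these also stand beside the counts per list below. Of all tested genes with a canonical transcript above 8000 bases, 71.6% were higher in replicate 2, and the lists were not matched for length. Of 15 further SWI/SNF subunits 14 were expressed, led by the actin-like ACTL6A with 22.9 RPKM and BCL7B with 20.1 RPKM. The neuronal subunit ACTL6B had 0 counts, for which 3 counts, or 0.130 and 0.167 CPM, are the upper limit that counting error leaves. Of 20 remodelers outside SWI/SNF all were expressed, BAZ1B and the NuRD ATPase CHD4 with 22.6 RPKM each, down to SMARCA1 with 37 and 17 counts. In that list 0 of 20 were higher in replicate 1 and 19 in replicate 2.

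The corepressor complexes that carry HDAC1, HDAC2 and HDAC3 were well expressed, with all 15 listed genes past the minimum. The histone chaperone RBBP7 and the NuRD subunit MTA2 led them with 42.4 and 39.0 RPKM, and MTA3 was the lowest with 2.55 RPKM. In this list 7 genes were higher in each library. Of 6 further sirtuins 5 passed, SIRT6 with 11.9 and SIRT2 with 7.34 RPKM being the highest, whereas the mitochondrial SIRT4 had 15 and 7 counts. Of 19 further Polycomb genes 18 passed, led by PHC2 with 30.6 RPKM. The exception was RING1, with 3 and 0 counts.

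All 13 further demethylases measured were expressed, KDM3B and KDM5C being the highest with 12.9 and 10.8 RPKM and KDM4D the lowest with 0.695 RPKM, and 12 of the 13 were higher in replicate 2. Among 22 histone methyltransferases the arginine methyltransferases PRMT5 and PRMT1 were the highest with 71.3 and 59.6 RPKM, and EHMT2 alone was below the minimum with 14 and 3 counts. RING1 and EHMT2 lie in the major histocompatibility region of chromosome 6, where 23 of 168 protein-coding genes reached a mean count of 20, against 501 of 812 on the rest of the chromosome. Their levels are therefore uncertain. Of 10 further genes of DNA methylation 9 passed, IDH2 with 45.5 and MBD2 with 29.0 RPKM leading, and DNMT3L, a partner of de novo methylation in germ cells, had 0 counts. All 10 further acetyltransferases passed, with KAT2A at 29.9 and HAT1 at 17.0 RPKM and KAT6B lowest at 0.820 RPKM. Of 10 readers of acetylated histones and related bromodomain proteins 9 passed, TRIM28 being the highest with 129 RPKM, and the testis gene BRDT had 0 counts. The ranks within several of these lists depend on the length. With canonical length ACTL6A no longer led its list, SIRT2 (24.5 RPKM) was above SIRT6 (20.5 RPKM), KDM5C (22.9) above KDM3B (15.1), PRMT1 above PRMT5, and HAT1 (70.8) above KAT2A (36.2), and KAT2B (1.98) was below KAT6B (3.20).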

How the data were processed

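Each library has 1 table of unnormalized read counts by gene symbol, as the authors deposited it. According to the methods and the submitters' processing notes, reads were checked with FastQC, mapped to hg19 with HISAT2 and counted within genes with HTSeq in Galaxy. Versions, gene annotation and strand setting are not given in the sources used here, and the library kit was directional. The files hold 23368 symbols and no rows for unassigned reads. Symbols were matched to the GENCODE annotation of GRCh37, 19313 by symbol and 1833 through older RefSeq symbols (90.5% in all), for coordinates and lengths. KMT2B and KMT2D could not be told apart by their older symbols and, with 2 Y-linked genes, were left out.

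CPM used the library totals, 23044084 and 17985508, and RPKM the union of exons. With 2 libraries of 1 condition, no quasi-likelihood test can be fitted, so the libraries were compared by the exact binomial test of edgeR with Benjamini-Hochberg adjustment over genes with at least 10 counts in all. The scripts were tested on simulated counts first. The members and lists were chosen with earlier results of these data known. All 43 members are named, and of each further list the 2 highest by RPKM, the lowest, and those under a mean count of 20. A few genes that this rule or the marker list would name are not reported here. Alternatives covered the scaling (TMM, DESeq2), the filters, the dispersion, the length and each library left out. Intervals and limits cover counting error only, since reads were not tagged by molecule and PCR copies are counted again. A lowess fit over 0.3 of the genes gave the length trend. Tests and scaling ran in edgeR 4.0.16, limma 3.58.1 and, for size factors, DESeq2 1.42.0 under R 4.3.3. Other steps used scipy 1.17.1, statsmodels 0.14.6, pandas 2.3.3, numpy 2.4.6 and matplotlib 3.10.9 under Python 3.11.15.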

Additional observations from a re-analysis of the deposited data

How the results depend on the processing

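Scaling by TMM or by DESeq2 size factors moved no level and no class sum beyond the spread of the libraries and changed no count of library differences by more than 1.5 times, and a minimum mean count of 10 left all 43 genes expressed, whereas 100 left 42, all but TET1. With the common dispersion, estimated from these same libraries, in place of counting error, the genes higher in replicate 1 and in replicate 2 fell to 0 and 0, and by a residual past 1 from the length trend they were 0 and 2 (0 and 0 with canonical length, an alternative chosen after seeing the data). Over the 43 genes, Spearman's rho of length and library ratio was −0.74 with the longest coding transcript and −0.73 with the canonical one. For some pairs the geometric mean ratio of the libraries fell from above 1 by exon union to below 1 with another length. SMARCD1 over SMARCD2 was 0.64 with the longest coding and with the canonical transcript. SMARCD1 over SMARCD3 was 0.976 with the canonical one, and EP300 over CREBBP was 0.945 with either. By the intervals of counting error, no order of these pairs turned into the opposite order. The same counts were divided by another length, and which length applies in these cells was not tested. No paired analysis was possible because the series holds 1 group. At these totals all 43 genes were measured with 44 or more counts in each library. For 12 of them the libraries did not differ beyond counting error, whereas they did for 57.7% of all tested genes. Depth limits that comparison for genes with few counts, such as TET1 with 47 and 44, HDAC9 with 164 and 104 and HDAC11 with 234 and 146. HDAC9 and HDAC11 had log2 ratios of 0.30 ± 0.18 and 0.32 ± 0.15 (counting SE). The ratio of HDAC3, with 2670 and 1643 counts, was of similar size, 0.34 ± 0.05 (counting SE). HDAC2, with 3999 and 3178 counts, had a log2 ratio of −0.026 ± 0.034 (counting SE), so its libraries were close.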
